A study of Mus musculus with 3 samples.

Results

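Megalin (encoded by *Lrp2*) and cubilin (*Cubn*) are the receptors with which the proximal tubule takes filtered proteins back from the tubular fluid, and they were followed here with 6 genes that serve them: *Amn*, *Dab2*, *Lrpap1*, *Clcn5*, *Ocrl* and *Fcgrt*. These 8 genes were chosen by name, out of 27998 genes in the files, and all 8 had UMIs in every library. Their raw counts were summed per library over classes of cells that other genes, the class markers, had named, with the segments of the proximal tubule and its injured cells kept apart, and are given as counts per 1000000 UMIs of the class (CPM). Fold differences are given as log2 ratios after 1 CPM was added. None of the 8 is a marker, but the classes come from clustering of the same cells, so differences between classes are descriptions and carry no test.

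Proteins that pass the glomerular filter bind to megalin and cubilin at the apical face of proximal tubule epithelial cells (PTECs), are drawn into clathrin-coated pits and are released in acid endosomes for breakdown or return, while the receptors go back to the membrane. Cubilin has no tail inside the cell and depends on amnionless (*Amn*) to reach the surface and on megalin and amnionless to enter it. Dab2 is the adaptor that ties the tails to the coat, the receptor-associated protein RAP (*Lrpap1*) is a chaperone that keeps newly made megalin free of ligands in the endoplasmic reticulum, ClC-5 (*Clcn5*) is a chloride and proton exchanger of endosomes, OCRL (*Ocrl*) is an endosomal phosphoinositide phosphatase, and the neonatal Fc receptor (*Fcgrt*) returns albumin and immunoglobulin G from endosomes. Loss of *Clcn5* or *Ocrl* in people causes Dent disease or Lowe syndrome, with low molecular weight protein in the urine.

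Droplet scRNA-seq was run on dissociated kidneys of 3 mice, 1 library each, on day 14 after folic acid (FA), which injures the tubule: 2 were *Aoah*-/- (numbered 2 and 3 in the labels) and 1 was WT (numbered 3). All 3 mice had received FA and were 6 to 8 weeks old by their labels, so no uninjured kidney is among them. *Aoah* encodes acyloxyacyl hydrolase, an enzyme that inactivates endotoxin. The *Aoah*-/- mice carry the mutated gene in every cell on the C57/BL6J background, and the WT mouse came from littermates of the same colony. With a single WT library no test between genotypes was possible, and 3 libraries compared within themselves cannot reach an exact two-sided p below 0.25. Where 3 values are listed, their order is *Aoah*-/- 2, *Aoah*-/- 3, WT. A level summed over a class is relative to the UMIs of that class, so it does not depend on the number of cells. Fewer cells with a gene and less of it in each cell cannot be told apart in such a level.

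The libraries held 161015021 to 167222984 (*Aoah*-/-) and 158551992 (WT) UMIs, and 21368, 19692 and 18202 cells were kept. The library *Aoah*-/- 3 stood apart: its barcodes began at 1672 UMIs instead of 500, and 35.8% of its PTEC-like cells lay in subclusters that also carried markers of another class, against 6.12% (*Aoah*-/- 2) and 5.03% (WT). Between any pair of libraries 109 to 117 kept cells had a barcode in common, 0.594% to 0.621% of the smaller library. *Aoah* itself stood at 6.75 and 6.19 CPM in the *Aoah*-/- libraries and 18.2 CPM in the WT library, lower in both *Aoah*-/- libraries though not 0, and where the mutation lies relative to the 3′ tags counted here is not given in the sources used here.

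PTEC-like cells numbered 25777. Of these, 7088 were S1-like, 1433 S2-like and 3442 S3-like, 1392 lay between S1 and S2 and 2754 between S2 and S3. These 16109 cells are called uninjured here only because they had a segment name and were not named injured. A further 392 were injured, 3723 were mixed with another class and 5553 had PTEC markers and no clear segment. The mixed cells and those without a clear segment were left out of the uninjured group whatever their injury markers. The markers that follow had themselves given the names, so their levels describe the classes and do not test the names. *Slc5a2*, the glucose transporter of the early tubule, stood at 717 CPM in S1-like cells, 121 CPM in S2-like cells and 16.6 CPM in S3-like cells, and *Slc7a13*, a transporter of the late tubule, at 16.1, 143 and 832 CPM. The S2 marker *Slc22a6* did not separate S2- from S3-like cells (952 against 1046 CPM). In injured PTECs the injury markers *Havcr1* and *Vcam1* stood at 208 and 898 CPM, against 1.44 and 6.31 CPM in uninjured cells, while the PTEC marker *Slc34a1* stood at 878 CPM against 4016 CPM, a 4.57-fold lower level that was still above the 285 CPM of T lymphocyte-like cells.

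*Lrp2*, *Cubn* and *Amn*, whose levels across the classes ran most nearly side by side, are shown by their promoters, each the 250 bases before and 50 bases after the start of transcription, 5′ to 3′ on the strand of the gene (RefSeq, GRCm38.p6). Capitals mark the E-box CACGTG. The windows lie at chr2:69585980-69586279, minus strand (*Lrp2*), chr2:13491827-13492126, minus strand (*Cubn*), and chr12:111270846-111271145, plus strand (*Amn*).
Lrp2: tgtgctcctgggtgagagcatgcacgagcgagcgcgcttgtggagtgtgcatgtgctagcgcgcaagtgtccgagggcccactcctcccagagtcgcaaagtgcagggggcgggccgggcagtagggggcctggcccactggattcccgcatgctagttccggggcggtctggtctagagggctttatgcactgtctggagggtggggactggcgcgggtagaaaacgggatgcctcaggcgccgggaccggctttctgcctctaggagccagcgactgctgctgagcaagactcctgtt
Cubn: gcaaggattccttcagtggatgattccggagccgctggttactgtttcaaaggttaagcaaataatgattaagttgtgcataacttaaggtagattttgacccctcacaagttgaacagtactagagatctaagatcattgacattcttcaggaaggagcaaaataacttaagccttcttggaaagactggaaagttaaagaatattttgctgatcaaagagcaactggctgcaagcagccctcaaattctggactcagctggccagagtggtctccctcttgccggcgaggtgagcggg
Amn: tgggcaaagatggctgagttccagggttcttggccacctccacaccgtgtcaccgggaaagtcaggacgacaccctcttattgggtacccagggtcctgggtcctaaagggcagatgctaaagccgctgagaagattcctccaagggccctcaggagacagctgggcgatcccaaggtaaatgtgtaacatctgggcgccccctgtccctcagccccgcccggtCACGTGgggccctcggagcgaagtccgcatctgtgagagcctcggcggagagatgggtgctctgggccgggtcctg
All 8 genes matched a promoter, 10 windows in all. These windows differed widely in composition, with 65% G and C for *Lrp2*, 62.3% for *Amn* and 44.3% for *Cubn*, beside a median of 52.7% over 32851 promoters. A set of 3 motifs was searched on both strands. GTTAAT, part of the site of the hepatocyte nuclear factor HNF1, is in 7.10% of all promoters, CAAAGTCCA, a site of HNF4, in 0.475%, and the palindrome CACGTG in 7.15%. The E-box was found in the *Amn* window and GTTAAT in the second of the 2 *Dab2* windows, and the other windows held none of these letters.

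By the GENCODE M21 annotation of GRCm38, *Lrp2* (ENSMUSG00000027070) covers chr2:69424340-69586065 and *Cubn* (ENSMUSG00000026726) chr2:13276338-13491813, both on the minus strand. *Amn* (ENSMUSG00000021278) covers 5332 bases at chr12:111271095-111276426 on the plus strand, against 161726 bases for *Lrp2* and 215476 bases for *Cubn*. The assay counts each molecule once, at its 3′ end, so counts do not scale with the length of a gene. How evenly the molecules of different genes are captured was not tested, so ratios between genes are ratios of counted molecules.

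Megalin was the most abundant of the 8 transcripts in the proximal tubule. In uninjured PTEC-like cells *Lrp2* stood at 1441, 1454 and 1523 CPM, a mean level of 1473 ± 44.0 CPM (SD, n = 3). The exact Poisson 95% intervals of the 3 libraries lay between 1430.3 and 1533 CPM, and such intervals cover counting error only. PTEC-like cells held 90.2% ± 3.0 of all *Lrp2* UMIs of the kept cells. After each cell had been thinned to 1000 UMIs, with shallower cells left out (1016 of 6119, 0 of 3857 and 623 of 6133 uninjured PTEC-like cells), 71.6% ± 1.34 of uninjured PTEC-like cells had an *Lrp2* UMI (90.3% unthinned), against 6.94% ± 0.991 of T lymphocyte-like cells (16.5% unthinned), which should not express it. The level in T lymphocyte-like cells, 109 ± 9.40 CPM, is taken as the background from free RNA below.

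Cubilin and its partner amnionless were present at far lower levels. *Cubn* stood at 193, 190 and 196 CPM in uninjured PTEC-like cells (193 ± 2.90 CPM), and *Amn* at 228, 225 and 191 CPM (214 ± 20.6 CPM). Thus 7.63 ± 0.159 *Lrp2* molecules were counted for each *Cubn* molecule and 6.93 ± 0.919 for each *Amn* molecule. PTEC-like cells held 89.7% ± 3.6 of all *Cubn* UMIs and 89.9% ± 3.49 of all *Amn* UMIs. In T lymphocyte-like cells the same ratios were 6.85 ± 0.317 and 7.16 ± 0.502, at background levels of 16.0 CPM for *Cubn* and 15.2 CPM for *Amn*.

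The receptor genes had few UMIs in the rest of the nephron. *Lrp2* ranged from 19.8 ± 4.93 CPM in principal-like cells to 73.9 ± 12.3 CPM in ascending limb-like cells, all below the T lymphocyte-like level. *Cubn* and *Amn* ranged from 3.45 to 8.83 CPM and from 3.92 to 11.2 CPM in ascending limb-, distal convoluted tubule-, connecting tubule-, principal- and intercalated-like cells. Erythroid-like cells (*Lrp2* 643 ± 44.7 CPM), neutrophil-like cells (287 ± 48.2 CPM) and endothelial-like cells (229 ± 30.2 CPM) lay above the T lymphocyte-like level, with *Cubn* at 88.7, 39.1 and 33.7 CPM. So did B lymphocyte-like cells (201 ± 41.6 CPM) and macrophage-like cells (165 ± 28.7 CPM), with *Cubn* at 24.6 and 22.9 CPM. Levels outside the nephron thus differed, and the background used here is that of T lymphocyte-like cells only.

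Of the accessory genes, *Dab2* and *Lrpap1* had 77.0% and 78.8% of their UMIs in PTEC-like cells, *Fcgrt* 65.0%, and *Clcn5* and *Ocrl* less. *Clcn5* was highest in intercalated-like cells, the acid- and base-secreting cells of the collecting duct: its level was 645, 709 and 548 CPM in type A-like and 479, 682 and 389 CPM in type B-like cells, and 97.3, 97.0 and 88.0 CPM in uninjured PTEC-like cells. All 6 intercalated values lay above all PTEC values of every segment. The 2 intercalated classes held 9.55% ± 1.47 and 11.05% ± 5.27 of all *Clcn5* UMIs with 408 and 358 cells, and PTEC-like cells 54.95% ± 9.62. At 1000 UMIs per cell, 37.9% ± 3.63 of type A-like cells had a *Clcn5* UMI (84.3% unthinned), against 8.35% ± 0.854 of uninjured PTEC-like cells (44.4% unthinned) and 0.939% of T lymphocyte-like cells (3.11% unthinned).

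*Dab2* was shared between the proximal tubule, intercalated cells and macrophages. It stood at 378, 359 and 326 CPM in uninjured PTEC-like cells, at 330, 395 and 344 CPM in intercalated A-like cells and at 341, 385 and 269 CPM in intercalated B-like cells, and these ranges overlap. Macrophage-like cells had 222, 258 and 175 CPM. The T lymphocyte-like level was 33.9 ± 4.36 CPM. For each *Lrp2* molecule, 0.241 ± 0.0247 *Dab2* molecules were counted in uninjured PTEC-like cells, 0.310 ± 0.0131 in T lymphocyte-like cells and 11.6 ± 1.2 in intercalated A-like cells, so that the *Dab2* of intercalated-like cells did not come in the ratio of the proximal tubule.

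Across the 26 classes with enough cells in every library, *Amn* followed megalin most closely among the genes that serve the receptors (mean r 0.94). The chaperone *Lrpap1* came next (mean r 0.85, both descriptions over classes that share libraries and depth). Its level was 298, 356 and 367 CPM in uninjured PTEC-like cells and 48.1 ± 3.19 CPM in T lymphocyte-like cells, and it was 53.6 to 77.2 CPM in the other named nephron classes apart from intercalated A-like cells (49.1 CPM). *Fcgrt* was also found outside the nephron: it was highest in fibroblast-like cells (193, 176 and 247 CPM), and macrophage-like cells (119 ± 3.17 CPM) did not separate from uninjured PTEC-like cells (131, 123 and 113 CPM).

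*Ocrl* was scarce everywhere. Its level in uninjured PTEC-like cells was 9.38, 8.99 and 7.37 CPM, close to the 6.26 ± 1.64 CPM of T lymphocyte-like cells. B lymphocyte-like cells had 3.37, 3.21 and 2.67 CPM of *Ocrl*, with more *Lrp2* than T lymphocyte-like cells (201 against 109 CPM). How much of the T lymphocyte-like *Ocrl* level is free RNA was not tested, so it is not a measured background for this gene. It was highest in principal-like cells (23.4, 20.9 and 26.3 CPM, from 23 to 33 UMIs a library), and connecting tubule-, ascending limb- and intercalated A-like cells lay between 17.6 and 18.5 CPM on average. Neighbours in this order overlapped. PTEC-like cells held 40.1% ± 5.93 of all *Ocrl* UMIs. Of the 8 genes, 5 were highest in a PTEC segment (*Lrp2*, *Cubn*, *Amn*, *Dab2* and *Lrpap1*), and *Clcn5*, *Fcgrt* and *Ocrl* in another class.

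**Figure D1:**
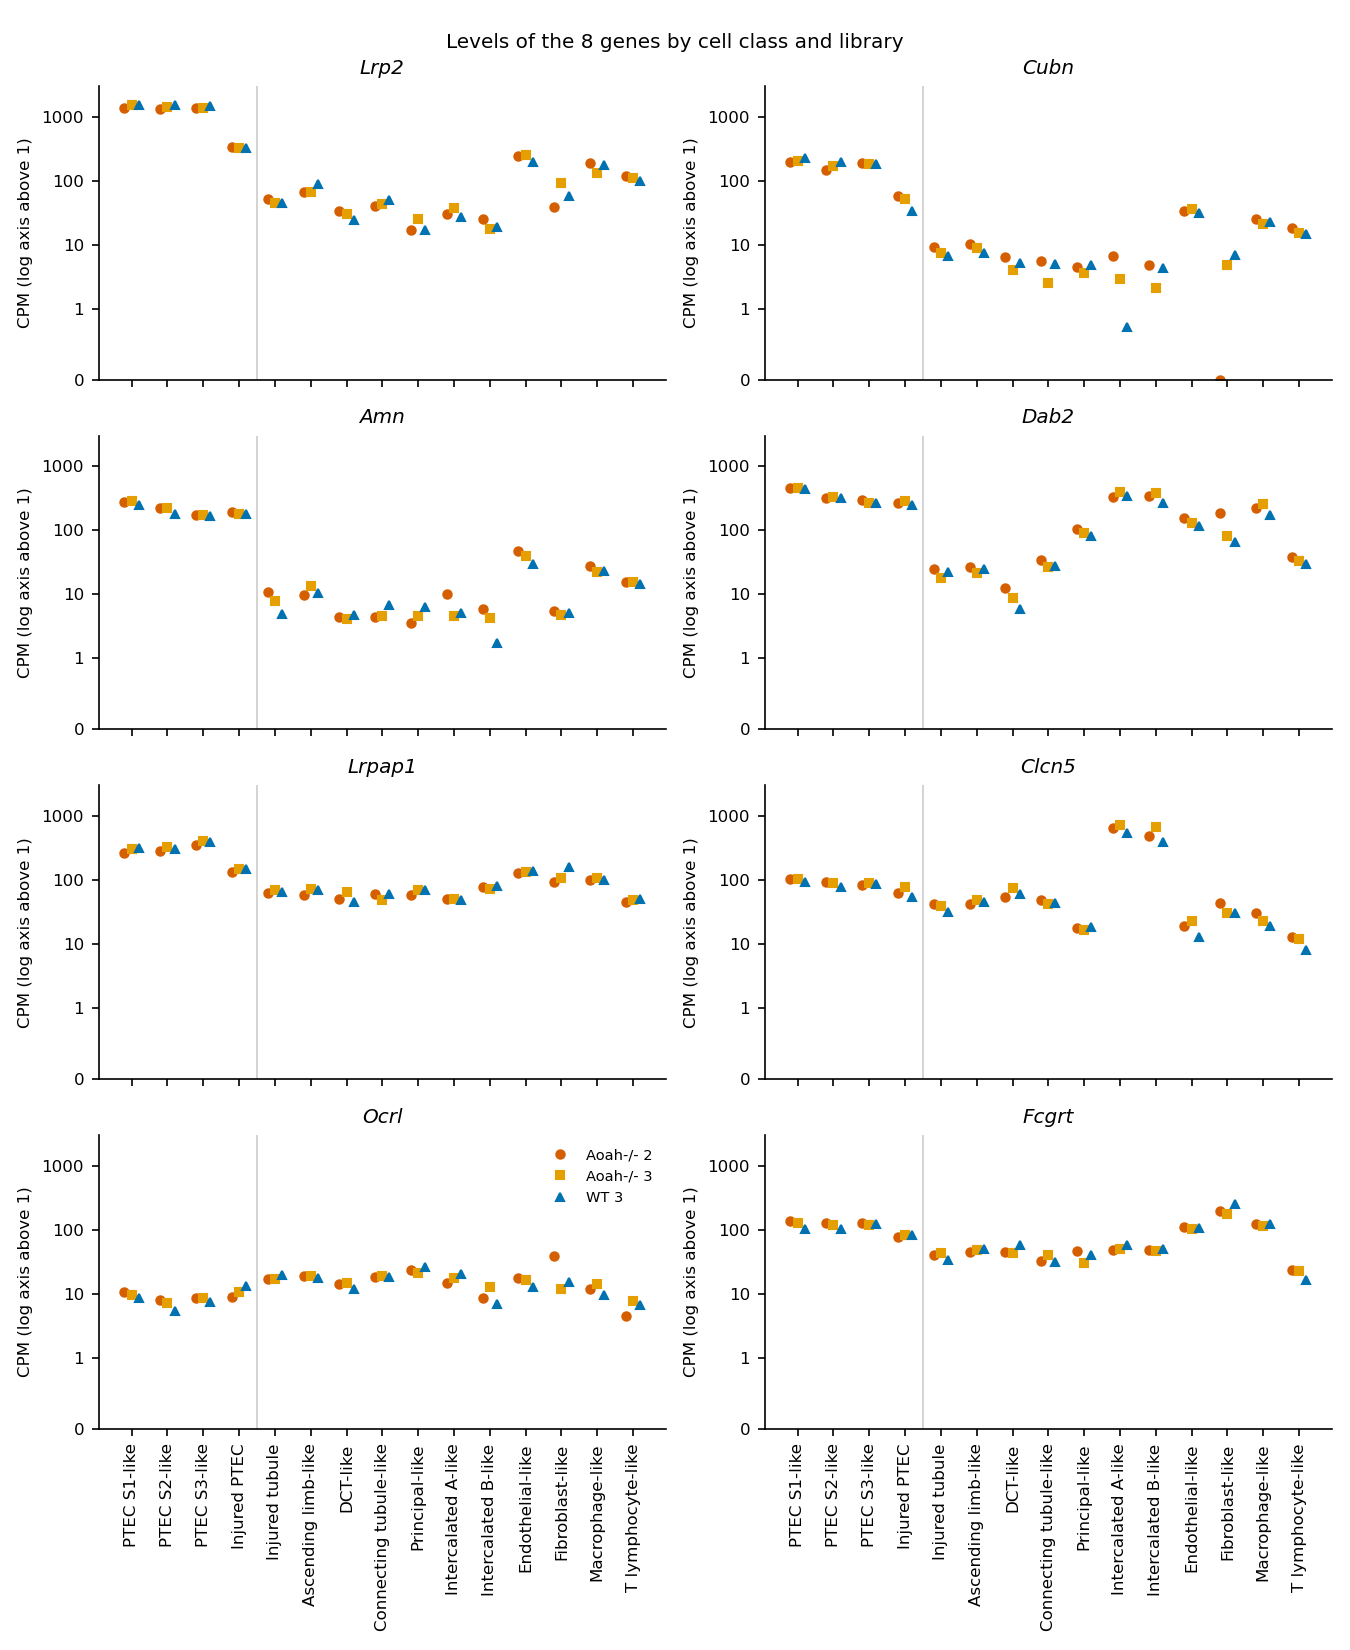
Levels (CPM, log axis above 1, linear below) of the 8 genes in 15 classes, 1 point per library; the grey line parts PTECs from other classes. Lrp2 is at 1299.6 to 1540.0 CPM in S1-, S2- and S3-like cells and at most 253 CPM right of the line, whereas Clcn5 peaks in intercalated-like cells (389 to 709 CPM) and Dab2 stays near its PTEC level there (269 to 395 CPM).

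Along the proximal tubule, S3-like cells were compared with S1- and S2-like cells within each library, to see whether the uptake genes follow the known fall of protein uptake along the tubule. The S1- and S2-like group held 9913 cells, those between S1 and S2 included. The cells between S2 and S3 were in neither group. A gene was called when it had at least 5 CPM in a class and a ratio of 1.5 or more the same way in all 3 libraries; 10.1% of 9240 genes met this (5% higher and 5.11% lower in S3-like cells), and 0 of the 8 did. The median log2 ratio of the 8 genes was -0.22, beside 0.02 for all genes. *Dab2* came nearest, with 278 CPM in S3-like and 430 CPM in S1- and S2-like cells and log2 ratios of -0.56, -0.70 and -0.62 in the 3 libraries (-0.63 ± 0.07). It missed the limit in *Aoah*-/- 2 alone: without that library 1 of the 8 genes, *Dab2*, was called lower. By segment, *Dab2* was at 454, 463 and 441 CPM in S1-like and 318, 330 and 318 CPM in S2-like cells. In S3-like cells it was at 295, 270 and 269 CPM, so S2-like cells lay nearer to S3- than to S1-like cells. *Amn* was next at -0.53 ± 0.10 (170 against 247 CPM), and all 3 libraries lay on the same side.

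The chaperone moved the other way. *Lrpap1* stood at 263, 304 and 315 CPM in S1-like cells and at 347, 409 and 397 CPM in S3-like cells, a log2 ratio to S1- and S2-like cells of 0.37 ± 0.04. The receptors themselves differed little: *Lrp2* had 1372, 1511 and 1531 CPM in S1-like, 1299.6, 1419 and 1540.0 CPM in S2-like and 1380.0, 1338 and 1471 CPM in S3-like cells, ranges that overlap, with a log2 ratio of -0.15 ± 0.08. *Cubn* gave -0.20 ± 0.11, *Clcn5* -0.28 ± 0.09, *Ocrl* -0.24 ± 0.04 and *Fcgrt* 0.02 ± 0.19. The highest *Lrp2* and *Cubn* levels were in the cells between S1 and S2 (1924 ± 65.8 and 244 ± 10.5 CPM), which did not overlap with S1-like cells. These cells were part of the S1- and S2-like group and raised its level. Mean *Lrp2* was 1551 CPM in that group, 1471 CPM in S1-like, 1419 CPM in S2-like and 1396 CPM in S3-like cells. For *Cubn* these means were 208, 206, 169 and 181 CPM. Depth and mitochondrial share differed between these classes: median UMIs per cell were 2837 to 6293 in S1-like and 13858 to 14858 in S3-like cells, with 25.3% to 27.5% and 16.8% to 18.5% mitochondrial UMIs, and their part in the ratios was not tested beyond the totals without mitochondrial genes, under which *Dab2* was called lower (-0.74).

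Within the proximal tubule the levels of the 2 receptors ran side by side over every set of subclusters, and *Amn* did so only when low-receptor cells were counted in. Across the 24 subclusters with a segment name, *Lrp2* ranged from 998 to 1938 CPM, *Cubn* from 127 to 299 CPM and *Amn* from 135 to 352 CPM. The correlation of *Lrp2* with *Cubn* over these subclusters was r = 0.89, while *Lrp2* with *Amn* gave r = -0.34, *Lrp2* with *Dab2* r = 0.33 and *Cubn* with *Dab2* r = 0.58, as descriptions over clusters drawn from the same libraries. The mix of libraries was uneven: WT cells filled some subclusters (550 of 570 and 744 of 773 cells) and were few in others (42 of 822 and 7 of 246). Median depth ran from 1067.5 to 29810 UMIs, and the part of library and depth in these correlations was not tested. With the 6 subclusters without a clear segment added, *Lrp2* and *Amn* gave r = 0.79 over 30 subclusters, and with the injured and mixed ones r = 0.62 over 45, beside r = 0.99 and 0.96 for *Lrp2* and *Cubn*. A group of 4 S1-like subclusters carried the highest *Amn* (296 to 352 CPM) at only 1089 to 1398 CPM of *Lrp2*. The highest *Dab2*, 722 CPM, lay in an S1-like subcluster of 235 cells, which also had the highest *Cubn* (299 CPM) and 1705 CPM of *Lrp2*. *Lrpap1* went with *Fcgrt* (r = 0.78).

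PTEC-like cells without a clear segment had less of both receptors and kept the adaptor. The PTEC marker *Slc34a1* was lower in these cells too, at 1297 CPM against 4016 CPM in uninjured cells. Their *Lrp2* level was 525, 465 and 400.1 CPM and their *Cubn* level 66.3 ± 9.28 CPM, while *Dab2* stood at 311 ± 22.2 CPM, within the range of the segments. Over their 6 subclusters *Lrp2* ranged from 186 to 1155 CPM. In the largest, 1579 cells, *Lrp2* was lowest, at 186 CPM, with *Amn* at 39.6 CPM and *Clcn5* at 11.9 CPM beside 291 CPM of *Dab2*. These cells were shallow, with a median of 1390 to 3053 UMIs. The mixed cells lay between in *Lrp2* (935 ± 125 CPM), with *Dab2* at 266 ± 41.4 CPM.

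**Figure D2:**
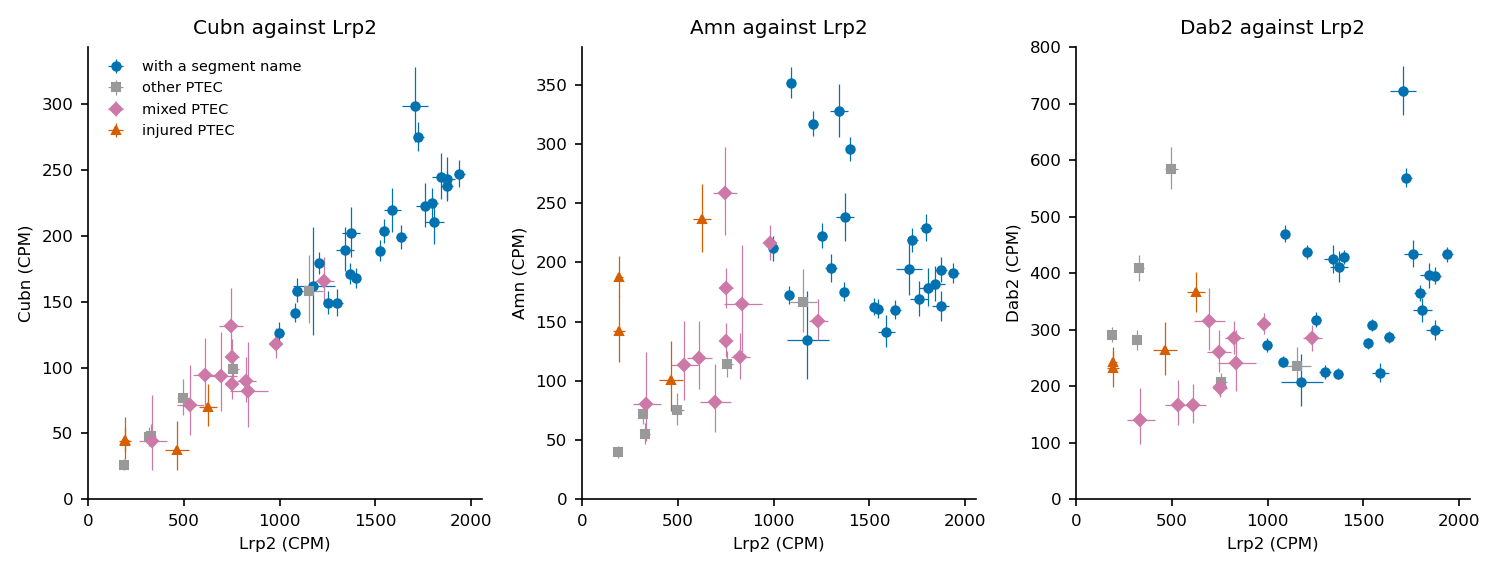
Cubn, Amn and Dab2 (CPM) against Lrp2 (CPM) in the subclusters of PTEC-like cells, all libraries summed; bars are exact Poisson 95% intervals. Cubn lies along a line with Lrp2 (127 to 299 CPM over the 24 subclusters with a segment name), Amn scatters among those 24 (r = -0.34) but is low where Lrp2 is low (r = 0.62 over all 45), and injured PTECs sit at 192 to 624 CPM of Lrp2 with Amn still at 100 to 236 CPM.

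Injured PTECs were compared with uninjured PTEC-like cells of the same library, to see how the uptake machinery stood in cells that carry injury genes. Most of the difference lay in 3 genes. *Lrp2* was at 334, 320.5 and 317 CPM in injured cells, against 1441, 1454 and 1523 CPM in uninjured cells, a mean log2 ratio of -2.18 ± 0.08 or a level 4.53-fold lower. *Cubn* was at 57.8, 52.4 and 32.9 CPM against 193, 190 and 196 CPM (-2.03 ± 0.44, 4.09-fold lower). *Lrpap1* was at 132, 149.9 and 149 CPM against 298, 356 and 367 CPM (-1.24 ± 0.06, 2.36-fold lower). All 3 genes were called lower. Their injured and uninjured libraries did not overlap, but neither did those of *Dab2*, *Clcn5* and *Fcgrt*, which were not called. The share of all genes without such overlap was not computed. Among 10490 genes, 7.27% were called lower and 34.2% higher, so that 41.5% were called in all. The receptor levels left in injured PTECs lay within the range of erythroid-, neutrophil- and endothelial-like cells (*Lrp2* 643, 287 and 229 CPM, *Cubn* 88.7, 39.1 and 33.7 CPM). How much of them is free RNA was not tested.

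The other 5 genes were not called. *Amn* stood at 193, 179 and 182 CPM in injured cells and 228, 225 and 191 CPM in uninjured cells (-0.21 ± 0.13), a small difference that changed sign under a limit of 20% mitochondrial UMIs (0.12) and under finer clustering (0.15). The receptor and its partner thus stood in another ratio: 1.73, 1.79 and 1.74 *Lrp2* molecules were counted per *Amn* molecule in injured cells, against 6.33, 6.47 and 7.99 in uninjured cells. *Dab2* was at 262, 290 and 248 CPM (-0.41 ± 0.11), *Clcn5* at 62.6, 76.4 and 54.8 CPM (-0.55 ± 0.18) and *Fcgrt* at 77.7, 83.6 and 83.7 CPM (-0.58 ± 0.16). On average *Clcn5* was 1.46-fold and *Fcgrt* 1.49-fold lower, just under the limit of 1.5. *Ocrl* gave 0.30 ± 0.41, from 13 to 25 UMIs in a library. The scale shifts this comparison: the median log2 ratio of all genes was 0.52 and that of the 8 genes -0.56. Relative to the median of all genes, *Amn* and *Dab2* were therefore also lower.

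Shares of cells followed the levels. At 1000 UMIs per cell, 25.4% ± 7.34 of injured PTECs had an *Lrp2* UMI (78.9% unthinned) against 71.6% ± 1.34 of uninjured PTEC-like cells and 6.94% ± 0.991 of T lymphocyte-like cells. For *Cubn* the share was 3.52% ± 1.02 (34.9% unthinned), against 18.5% ± 0.526 (63.6%) and 1.14% (3.73%), and for *Amn* 12.2% ± 4.06 (62.3%), against 17.0% ± 0.967 (62.2%) and 1.18% (4.16%). The *Cubn* share in injured cells thus lay nearer to its T lymphocyte-like share than the *Amn* share did.

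The injured class was not uniform, and its name is not equally firm throughout. It held 4 subclusters of 63 to 148 cells, and in 2 of them, 211 of the 392 cells, the marker score of another class (thin limb or pericyte) was above that of PTECs, with *Slc34a1* at 433 ± 87.0 CPM. In the other 181 cells *Slc34a1* was at 1712 ± 365 CPM and *Lrp2* at 653, 559 and 524 CPM, against 184, 211 and 166 CPM in the 211. With these 181 cells alone *Lrp2* (log2 -1.35 ± 0.20), *Cubn* (-1.69 ± 0.42) and *Lrpap1* (-0.95 ± 0.18) were still called lower than in uninjured cells, and *Amn* (-0.10 ± 0.27) and *Dab2* (-0.12 ± 0.14) were not. *Lrp2* was 624 CPM (exact Poisson 95% interval 579 to 671) in a subcluster of 78 cells with *Vcam1* at 309 CPM and no *Havcr1* UMI, and 195 CPM (178 to 214) in the largest, of 148 cells, with *Vcam1* at 1188 CPM, *Havcr1* at 252 CPM and the chemokine *Ccl2* at 1881 CPM. A subcluster of 63 cells with the cell cycle genes *Mki67* (262 CPM) and *Top2a* (219.5 CPM) had 192 CPM of *Lrp2*, and the last, of 103 cells, 462 CPM. That last one had *Vcam1* at 523 CPM and *Havcr1* at 81.6 CPM. Its cells were shallow (median 4456 UMIs), with a median of 24.8% mitochondrial UMIs. *Slc34a1* was at 1928, 444, 504 and 1080 CPM in the subclusters of 78, 148, 63 and 103 cells, and so was higher where *Lrp2* was higher. *Dab2* varied less among the 4, from 232 to 366 CPM.

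Cells led by injury genes and not named PTECs, 1291 in all, had *Lrp2* at 47.2 ± 4.07 CPM and *Dab2* at 21.8 ± 3.42 CPM, both below the T lymphocyte-like level. Their highest class score was that of the ascending limb, or of principal cells in a subcluster of 298 cells. The ascending limb marker *Umod* stood at 3910 CPM in them. A subcluster of 81 cells also had a PTEC score of 1.23. Their levels are thus mainly those of distal tubule cells and do not show what injury does to PTECs. Other measures differed along with the injured class. Its median mitochondrial share was 9.58% to 10.9%, against 23.0% to 23.5% in uninjured cells, and its median depth 9422 to 12657 UMIs, against 4400 to 7926. The summed level of 10 endothelial markers was 119 to 246 CPM against 6.77 to 17.0 CPM, and that of 8 macrophage markers 47.9 to 113 CPM against 22.8 to 41.5 CPM, with no marker of either list at 0. The endothelial list includes *Plat*, which was among the leading genes of the injured subcluster of 63 cells. How much of the sum each gene made up was not computed. The part of these measures in the result was not tested. With totals that left out the 13 mitochondrial genes, *Lrp2* was lower still (-2.42).

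**Figure D3:**
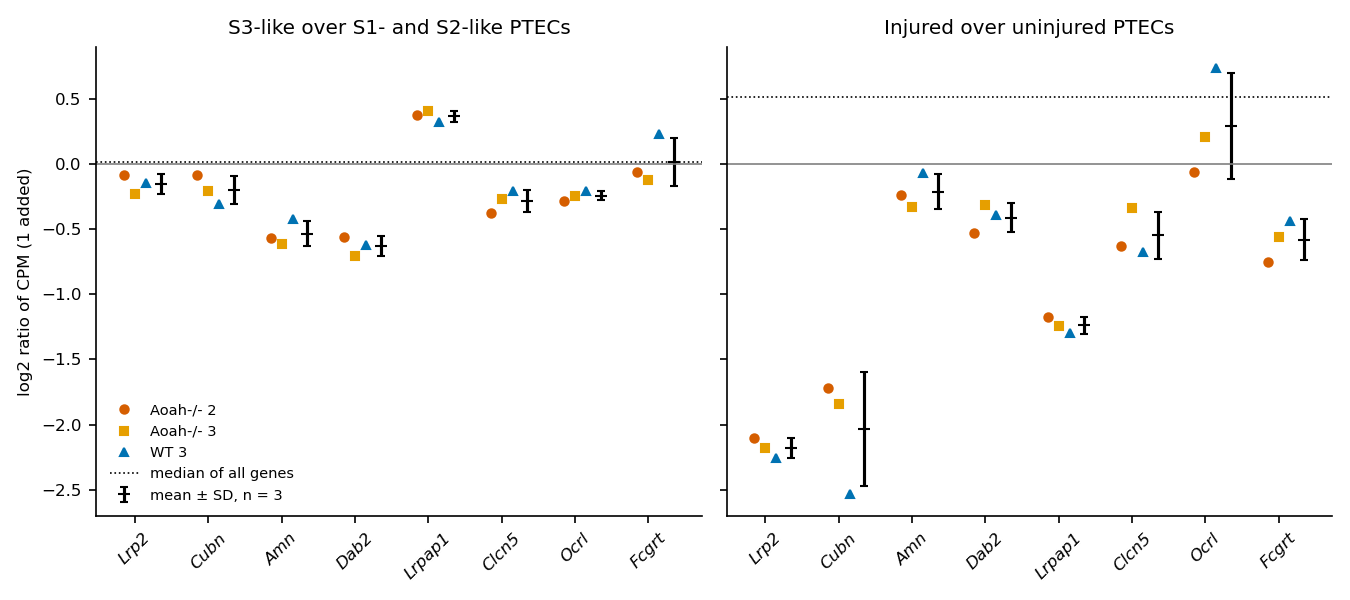
Log2 ratio of CPM (1 added) for the 8 genes in each library, S3-like over S1- and S2-like PTECs (left) and injured over uninjured PTECs (right); bars are the mean ± SD over 3 libraries and the dotted line is the median of all genes (0.02 and 0.52). Lrp2, Cubn and Lrpap1 lie far below 0 on the right (-2.18, -2.03 and -1.24), and Lrpap1 alone lies clearly above 0 on the left (0.37).

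Genes of the same pathway were read from 6 lists of 53 genes, of which 48 were tested in each comparison. In injured PTECs 15 were called higher and 3 lower, beside 34.2% and 7.27% of all genes, and the median log2 ratio over the lists was 0.32 beside 0.52 for all genes. Of the clathrin coat list, 5 of 11 were called higher, among them the AP-2 subunits *Ap2b1* (71.0 against 27.6 CPM, log2 1.33 ± 0.03) and *Ap2m1* (0.86 ± 0.10) and the coat assembly protein *Picalm* (0.84 ± 0.05). Among adaptors and sorting genes 3 of 9 were called higher (*Gipc1*, 1.31; *Rab35*, 1.09; *Appl1*, 0.92) and 1 lower (*Inpp5b*, a phosphatase related to OCRL, -0.72). Among the small GTPases of endosome traffic, *Rab11b* (1.14), *Rab5a* (0.71) and *Rab11a* (0.67) were called higher, 3 of 11 in the list. The largest ratios were those of ligands: *Clu* was 23.3-fold higher (334 against 13.4 CPM), *Gc*, the vitamin D binding protein, 11.8-fold and *B2m*, the light chain of MHC class I, 5.69-fold. *Clu*, counted among the 15, is itself one of the injury markers that named the class, so its higher level there follows in part from the naming. The *Gc* ratio varied between libraries (log2 2.61, 3.27 and 4.82) and was 7.66-fold without the WT library. In the same list of 8 tested partners and ligands *Tcn2* (-1.96), a carrier of vitamin B12 that megalin takes up, and *Tfrc* (-1.55), the transferrin receptor, were called lower. *Inpp5b*, *Tcn2* and *Tfrc* are named because they were the 3 called lower, a choice made after their values were seen. None of the 5 endosomal chloride channels and none of the 4 tested relatives of megalin was called.

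In S3-like cells 1 of the 48 genes was called higher and 5 lower, beside 5% and 5.11% of all genes. The higher one was *Rab38*, a GTPase of lysosome-related organelles (11.3 against 3.46 CPM, log2 1.47 ± 0.36). The lower ones were the adaptor *Appl2* (-0.91), the endosomal chloride transporter *Clcn6* (-1.29) and the ligands *Gc* (-3.94), *Apoe* (-1.81) and *B2m* (-0.79).

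Between genotypes the 8 genes differed little in PTEC-like cells. A gene was called here when the 2 *Aoah*-/- libraries lay beyond the WT library, on the same side, by more than the gap between them and by 1.5-fold on average. This held for 4.84% of 9292 genes (3.36% higher and 1.49% lower in *Aoah*-/-) and for 0 of the 8. *Lrp2* was at 1308 and 1242 CPM in the *Aoah*-/- libraries and 1317 CPM in the WT library (log2 -0.05 ± 0.05, SD of the 2 *Aoah*-/- libraries), and *Cubn* at 176, 163 and 169.8 CPM (-0.00 ± 0.08). *Amn* was higher in both *Aoah*-/- libraries by a ratio of 1.21 (211 and 206 against 172 CPM), as were *Clcn5* (1.14), *Fcgrt* (1.14), *Dab2* (1.11) and *Ocrl* (1.29, at 9.18 and 8.999 against 6.82 CPM). The *Ocrl* value rests on a low level. With the T lymphocyte-like level taken off, which for *Ocrl* may not be free RNA, its log2 ratio was 1.69 ± 0.93 instead of 0.37. *Lrpap1* was lower in both (278 and 322 against 337 CPM). The median log2 ratio of the 8 genes was 0.17, beside -0.01 for all genes. With 1 WT mouse these differences cannot be set against the spread between WT mice. The make-up of the PTEC-like cells also differed: 805 of 8540, 856 of 7572 and 1781 of 9665 were S3-like. Those without a clear segment made up 20.8%, 10.5% and 30.8%. The part of this make-up in the ratios was not tested beyond 2 alternatives, the mean of the ratios within S1-, S2-, S3-like and injured cells and PTECs with a segment name only. None of the 8 genes was called under them.

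Within the segments the ratios varied. That of *Amn* was 1.15 in S1-like, 1.25 in S2-like and 1.03 in S3-like cells, 0.975 between S1 and S2 and 1.19 between S2 and S3. In S1-like cells *Amn* was at 279 and 284 CPM in *Aoah*-/- and 245 CPM in WT, and in S3-like cells at 173, 170.2 and 167 CPM. *Fcgrt* was at 136 and 129 against 101 CPM in S1-like cells and at 127, 116 and 121 CPM in S3-like cells, where the WT value lay between the *Aoah*-/- values. *Lrp2* was below WT in both *Aoah*-/- libraries in S1-, S2- and S3-like cells, with log2 ratios between -0.24 and -0.02. Both lay above WT in the cells between S1 and S2 (0.067 and 0.097), and they lay on either side of it in the cells between S2 and S3 (0.15 and -0.13). In injured PTECs *Lrp2* was at 334 and 320.5 CPM against 317 CPM, and *Cubn* at 57.8 and 52.4 CPM against 32.9 CPM, a ratio of 1.65 that rests on 33 WT UMIs (exact Poisson 95% interval 22.6 to 46.2 CPM). *Cubn* met the call there, as did 12.8% of all 10555 genes tested there (6.41% higher and 6.35% lower).

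**Figure D4:**
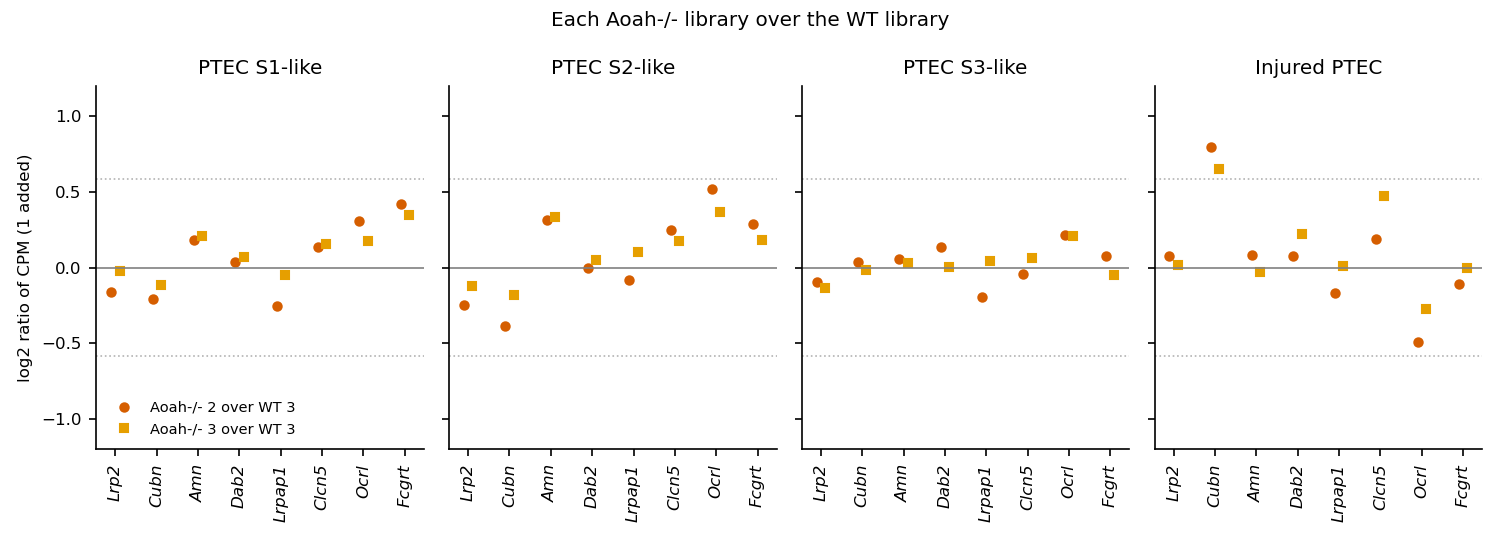
Log2 ratio of CPM (1 added) of each Aoah-/- library over the WT library, in S1-, S2- and S3-like and injured PTECs; dotted lines mark 1.5-fold. All points of the S1-, S2- and S3-like cells lie within the dotted lines, and Cubn in injured PTECs (0.79 and 0.65) lies outside.

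Markers of immune cells differed between the PTEC-like cells of the libraries. The summed level of 8 macrophage markers was 55.3, 107 and 28.3 CPM, and that of 9 T lymphocyte markers 12.2, 37.3 and 7.68 CPM, with no marker at 0. In uninjured PTEC-like cells the macrophage markers stood at 41.5, 35.0 and 22.8 CPM and *Dab2* at 378, 359 and 326 CPM. Their part in the differences between genotypes was not tested beyond leaving out cells with an immune UMI and taking off the T lymphocyte-like level, for the 8 genes only. An immune UMI here is a UMI of *Ptprc*, *Cd74*, *Cd3e*, *C1qa* or *Lyz2*. The paper reports *Cd74* in PTECs themselves, at a higher level in *Aoah*-/- mice, so this filter also leaves out such PTECs. Of the 48 pathway genes, 2 were called higher in *Aoah*-/- PTEC-like cells and 0 lower, beside 3.36% and 1.49% of all genes. They were *B2m* (504 and 540.3 against 190 CPM, 2.74-fold) and *Gc* (29.3 and 31.4 against 14.2 CPM, 2.06-fold). In uninjured cells alone the *B2m* ratio was 2.53 and the *Gc* ratio 2.22. By segment, the *B2m* ratio was 2.51 in S1-like, 2.27 in S2-like and 2.10 in S3-like cells. The *Gc* ratio was 1.47 in S1-like cells (59.5 and 59.4 against 40.1 CPM), under the 1.5-fold limit. *Gc* was at most 1.86 CPM in S2- and S3-like cells, and the part of the mix of segments in its ratio was not tested. In injured PTECs the *B2m* ratio was 1.24 and that of *Gc* 0.609, with 173 and 247 CPM in *Aoah*-/- and 345 CPM in WT.

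The genes whose levels across the 26 classes were most like those of *Lrp2*, among 10979 genes of at least 20 CPM in a class, were *Acsm2* (mean r over the libraries 0.99), *Slc34a1*, *Ugt2b38*, *Keg1* and *Hgd*, of which 3 are PTEC markers of the naming. Those most like *Cubn* were *Abcc2* (0.97), *Slc6a20b*, *Acsm2*, *Cml1* and *Slc34a1*. For *Dab2* likeness was weaker, led by *Rab11fip3* (0.83) and *Anpep*. *Cubn* and *Lrp2* were alike at 0.96 and *Amn* and *Lrp2* at 0.94, while *Clcn5* and *Lrp2* gave 0.15 and *Ocrl* and *Lrp2* -0.44. These values are descriptions over classes that share library and depth.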

How the data were processed

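Kidney cells of 3 FA-treated mice were captured with a Chromium 3′ v2 kit after digestion with collagenase IV and DNase I and lysis of erythrocytes. The deposited values are raw UMI counts per gene and cell, which the authors made with Cell Ranger 3.1.0 (STAR, mm10) by the submitters' processing notes, which also name Seurat 4.2.0. The header of the deposited count matrices names cellranger 6.1.2 instead. No column was left unused (0).

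Barcodes with at least 200 genes and at most 50% of UMIs from the 13 mitochondrial genes were kept, scaled to 10000 UMIs and clustered with scanpy 1.11.5 (2000 variable genes, 50 principal components, 15 neighbours, Leiden resolution 1 with igraph 0.11.9), and PTECs again with 30 components at resolution 0.5. Clusters were named from marker lists, and the members, the lists and the naming rule were chosen with earlier results of these data known. Doublets were kept: Scrublet called 544 (2.55%), 0 and 201 (1.10%) cells, so it did not work in *Aoah*-/- 3.

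Raw counts were summed per library and class with pandas 2.3.3 and numpy 2.4.6 in Python 3.11.15. Intervals are exact (scipy 1.17.1), ratios carry 1 CPM, and classes needed 10 cells in every library to be compared. A gene was called at 5 CPM or more and 1.5-fold in the libraries required, and no p-value was computed. The scripts were tested on simulated data. Genes named are the 8, the largest 3 called per pathway list, the 5 most alike to *Lrp2* and *Cubn*, the leading ones for *Dab2* (the rest of that list is not reported here), and *Aoah*, beside 3 named after their values were seen. Figures were drawn with matplotlib 3.10.9. Alternatives covered cell filters, clustering, doublets, totals, the added CPM and each library left out. Depth per library is given in the text, and proteins were not used here.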

Additional observations from a re-analysis of the deposited data

Results flagged for a closer look

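For 4 of the 8 genes both *Aoah*-/- libraries lay on one side of the WT library in injured PTECs and on the other side in uninjured PTEC-like cells. No fold limit applied, and the difference was not tested. The share of all genes that did so was not computed, so the count shows nothing particular to the 8 genes. For *Cubn* the log2 ratios to WT were 0.79 and 0.65 in injured and -0.02 and -0.04 in uninjured cells, a difference of 0.76 that rests on 33 UMIs in the injured WT cells. For *Ocrl* they were -0.49 and -0.27 in injured and 0.31 and 0.26 in uninjured cells, a difference of -0.66 with 13 UMIs in the injured WT cells. For *Fcgrt* the difference was -0.22, from -0.11 and -0.0022 in injured and 0.21 and 0.12 in uninjured cells. For *Lrp2* it was 0.12, from 0.08 and 0.02 in injured and -0.08 and -0.07 in uninjured cells.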

How the results depend on the processing

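No paired analysis was possible because the genotypes share 1 replicate number only and no test was made. Of the results that answer a comparison, 101 values under alternatives stayed within the spread between libraries (counts within 1.5 times) and 26 did not, and no called value changed sign. *Lrp2*, *Cubn* and *Lrpap1* were called lower in injured PTECs under all 15 settings, with *Lrp2* at -2.10 with at least 500 genes per cell, -2.01 with all barcodes, -1.66 at resolution 2, -2.04 with 30 components, -2.42 with totals without mitochondrial genes and, in settings added after seeing the data, -2.02 with all other PTEC-like cells counted as uninjured and -1.35 with the 181 injured cells whose PTEC score was highest. The count of genes called lower in S3-like cells, 0, became 2 under a limit of 20% mitochondrial UMIs (*Dab2* at -0.87, and *Ocrl*), and 1 (*Dab2*) with all barcodes, at resolution 2 (-0.72), with 30 components (-0.70), with totals without mitochondrial genes (-0.74), without cells carrying an immune UMI, and, added after seeing the data, with subclusters between S2 and S3 counted as S3-like; it ranged from 0 to 1 with 1 library left out. Between genotypes the ratio of *Lrp2*, -0.05, was 0.032 under the 20% limit, 0.0505 as the mean over cells and 0.073 without cells carrying an immune UMI, and that of *Cubn* 0.14, 0.10 and 0.12, and 0.075 as the mean within segments and injured cells. In PTEC-like cells as a whole, none of the 8 genes was called between genotypes under any of 16 settings; injured PTECs were not run under them.

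Leaving out cells with an immune UMI, *Cd74* included, left 29 injured PTECs, 8 to 11 a library, so that comparison gave no value. How many cells were left out for *Cd74* alone was not counted. The 20% limit left 0 S2-like cells. With 1 WT library the spread between WT mice is unknown, and the injured WT class, of 65 cells, holds 33 UMIs of *Cubn* and 13 of *Ocrl*.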
